A study of Mus musculus with 4 samples.

Results

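The Myc locus was taken as the stretch of mouse chromosome 15 from 61000001 to 64500000 (mm9), set by position and not by any measured value. The choice was nonetheless made with earlier results of these data known. The stretch holds Myc at about 61.82 Mb and a cluster of blood enhancers at about 63.4 to 63.6 Mb. The stretch of 3.5 Mb comprised 175 of the 131957 bins of 20 kb in the deposited table, and 175 of 175 had a score in every library. Hi-C libraries were compared between haematopoietic progenitors labelled Stag2 wildtype (2 libraries) and Stag2 knock-out (2 libraries), prepared from mouse bone marrow depleted of cells with lineage markers. The sources used here do not give the strain, age, sex or the allele and driver behind the knock-out, nor do they state whether replicate libraries were made from different mice. The p-values therefore rest on the spread among these 4 libraries alone, and that spread may be technical. The values describe chromosome folding alone, so neither the genotype nor the cell type label was checked against Stag2 or marker transcripts.

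Myc encodes a transcription factor that drives growth and proliferation, and its level in blood stem and progenitor cells depends on enhancers lying far downstream of the gene in a desert without protein-coding genes. Such an enhancer has to come close to its promoter across the intervening DNA, and contacts form mostly within a domain and less often across a domain boundary. Cohesin, the ring complex that contains either STAG2 or STAG1, extrudes chromatin loops and is halted at CTCF sites, where many boundaries lie. The comparison bears on how the stretch between Myc and its enhancers is folded with and without Stag2. In the RefSeq annotation of GRCm38.p6, a later build used here only for gene order, Myc (gene 17869) is followed by Pvt1, a long non-coding RNA gene. The next protein-coding gene is Gsdmc, of the gasdermin family of pore-forming proteins, and 16 genes lie between Myc and Gsdmc, of which 9 are lncRNA genes, 5 pseudogenes and 2 small RNA genes. After the Gsdmc genes come Cyrib, a regulator of the RAC1 pathway, Asap1, which encodes a GTPase-activating protein for ARF, and Adcy8, which encodes an adenylate cyclase.

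The insulation score sets the contacts that cross a bin against its surroundings. A low score marks a place that few contacts span, and a local minimum marks a boundary. The sources used here do not give the sequencing depth, the log base of the score or the width of its window. Within the Myc stretch the libraries of a genotype were close to each other. Pearson's r across the 175 bins was 0.995 for the wildtype pair and 0.994 for the knock-out pair. Pairs of unlike genotype had r from 0.968 to 0.977. Each profile is an average over many cells, so a shift in all cells and a larger shift in some cells cannot be told apart.

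No boundary lay between Myc and the enhancer cluster in either genotype. A boundary was defined as the lowest bin within 10 bins (200 kb) to either side, with a depth of 0.2 or more. Depth is the mean of the highest score on each flank minus the score of the bin. The mean profile of all 4 libraries had 2 such boundaries in the stretch, one directly beside Myc and one just past the enhancers. The first was the bin from 61780001 to 61800000, which adjoins the Myc bins on their centromere side. The second was the bin from 63640001 to 63660000, which starts 40 kb past the end of the enhancer cluster. Myc and the enhancer cluster therefore lay between the same pair of boundaries, which enclosed 1840 kb. Each single library also had 2 boundaries in the stretch and 0 between gene and cluster.

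**Figure D1:**
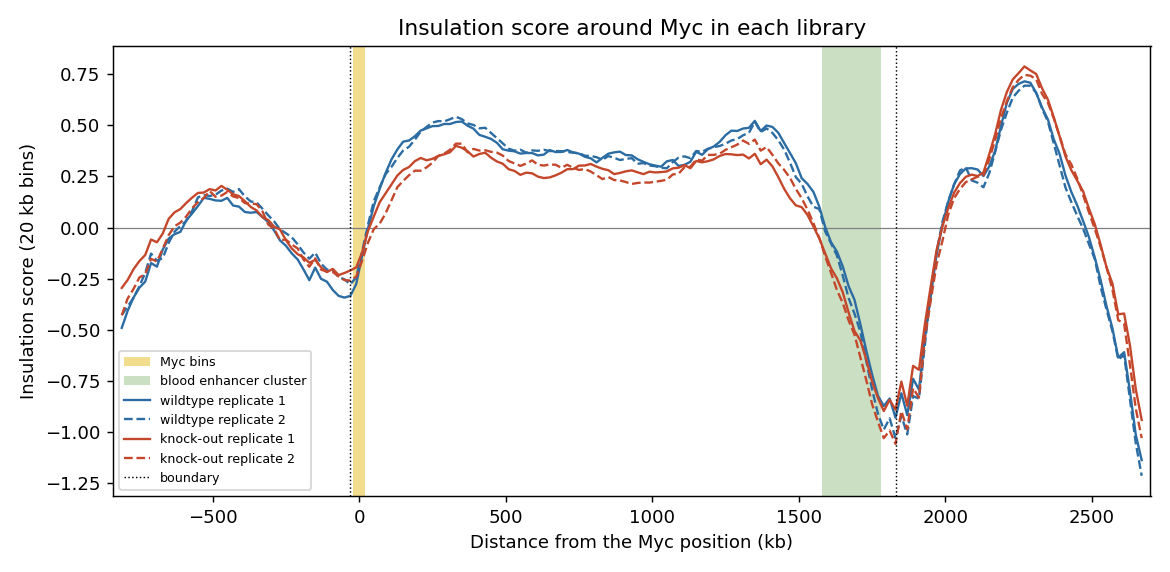
Insulation score (y axis, 20 kb bins) of the 4 libraries against distance from the Myc position in kb (x axis). Yellow and green bands mark the Myc bins and the enhancer cluster, and dotted lines the 2 boundaries. All 4 profiles stay above 0 over most of the desert between the bands and fall steeply across the enhancer cluster.

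The boundary beside Myc sat at nearly the same place in the single libraries. Its lowest bin started at 61760001 in wildtype replicate 1, at 61780001 in wildtype replicate 2, at 61740001 in knock-out replicate 1 and at 61780001 in knock-out replicate 2. The boundary past the enhancers started at 63640001 in both wildtype libraries and in knock-out replicate 2, and at 63600001 in knock-out replicate 1. These positions differed by no more than 40 kb, which is 2 bins. Between Myc and the cluster the profiles held only shallow dips. The deepest dip was 0.0974 below its flanks in wildtype replicate 1, 0.0896 in wildtype replicate 2, 0.0964 in knock-out replicate 1 and 0.0814 in knock-out replicate 2. Its place varied, starting at 62840001 and 62860001 in wildtype, against 62440001 and 62740001 in knock-out. In the single libraries the deepest dip thus neither reached the depth of a boundary nor held a common position. Knock-out replicate 1 had a further dip of 0.0571 at 62780001, nearer to the wildtype places. In the profiles of 10 kb bins, 1 per genotype, the dip started at 62830001 in both genotypes, so a shift in place between genotypes is not shown.

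The boundary beside Myc was shallower in both knock-out libraries, although the difference did not pass the test over all boundaries. Its depth was 0.483 and 0.452 in wildtype, against 0.306 and 0.345 in knock-out, with no overlap. The mean was 0.468 ± 0.0224 for wildtype against 0.326 ± 0.0274 for knock-out (SD, n = 2), a difference of -0.142 with a standard error of 0.0377. Limma, fitted to the depths of 1905 boundaries of the genome, gave an unadjusted p of 0.00160 and an adjusted p of 0.0755. Of those 1905 boundaries, 0.945% were called shallower and 0.262% deeper in knock-out at an adjusted p below 0.05, and 0 of the 2 boundaries here were among them. With each library scaled to unit SD the adjusted p was 0.0415, and over all alternatives it ran from 0.0415 to 0.371. The two-sided exact permutation test over the libraries gave p = 0.333, the smallest that 2 against 2 allows.

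The flanks show where that depth changed. On the side of the enhancers, the highest score within 200 kb of the boundary was 0.425 and 0.395 in wildtype, against 0.295 and 0.255 in knock-out. On the centromere side the highest scores were -0.126 and -0.0475 in wildtype and -0.102 and -0.0833 in knock-out, which overlap. The score of the boundary bin itself was -0.334 and -0.278 in wildtype and -0.210 and -0.259 in knock-out, a difference of 0.0717 with an adjusted p of 0.233 by limma. The shoulder towards the enhancers differed by -0.135. Since depth averages both flanks, this lower shoulder and the higher minimum contributed about equally to the shallower boundary. In each library both shoulders were the outermost bins of the flanks, on a slope and not at a domain top. The shoulder towards the enhancers, the bin from 61980001, belongs to the desert, so the depth is not separate from the desert scores given below.

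The boundary past the enhancers was among the deeper ones of the genome. Its depth averaged over the 4 libraries was at the 97.5th percentile of the 1905 boundaries, against the 52.2nd for the boundary beside Myc. The depth was 0.977 and 1.07 in wildtype, against 0.852 and 0.977 in knock-out. Knock-out replicate 2 lay level with wildtype replicate 1, and the difference of -0.108 had a standard error of 0.0736 and an adjusted p of 0.478 by limma. It was -0.0455 without knock-out replicate 1, -0.0626 without wildtype replicate 2 and -0.171 without knock-out replicate 2. The score of the bin itself was nearly the same in both genotypes, at -0.980 ± 0.0709 for wildtype against -0.974 ± 0.118 for knock-out (SD, n = 2). The shoulder on the side of Myc was lower in knock-out, at -0.248 and -0.306 against -0.117 and -0.136. In each library it was the outermost bin of the flank, from 63440001 to 63460000, which lies inside the enhancer cluster. Its values thus restate the lower scores of the cluster given below. The shoulder on the far side differed less, at 0.170 and 0.143 against 0.211 and 0.211.

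**Figure D2:**
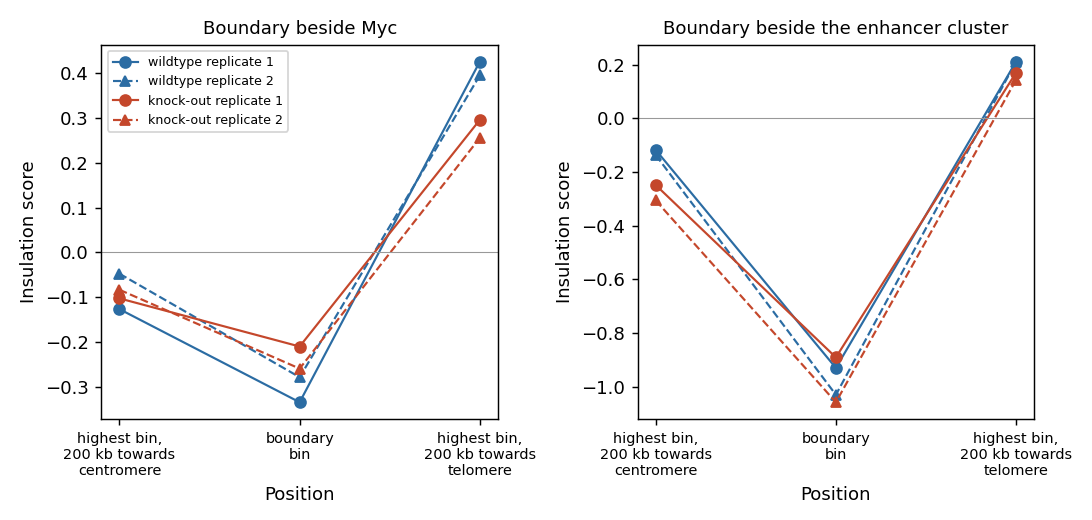
Insulation score (y axis) at the 2 boundaries and at the highest bin within 200 kb on each side (x axis), with 1 line per library. On the side that faces the desert between Myc and the enhancers, both knock-out libraries lie below both wildtype libraries at each boundary.

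In the scores as deposited, the desert between Myc and the enhancers was lower in knock-out, and after subtraction of a running mean most of that difference was gone (-0.0162 in place of -0.0975). The running mean covers 51 bins, fewer than the 78 of the desert. Its subtraction therefore removes much of any shift shared by the whole desert, and cannot show whether such a shift is present. Over the 78 bins from 61840001 to 63400000 the mean score was 0.376 and 0.370 in wildtype, against 0.274 and 0.277 in knock-out. The genotypes did not overlap, and the libraries within a genotype differed by less than 0.01. The means were 0.373 ± 0.00361 for wildtype against 0.275 ± 0.00276 for knock-out (SD, n = 2), a difference of -0.0975, with an exact permutation p of 0.333 (two-sided, the smallest possible). The difference was -0.102 between the libraries whose titles carry no suffix and -0.0930 between those whose titles end in T1, a suffix the labels do not explain. Scores here were high for the genome, with a median at the 84.9th percentile of all bins in wildtype and at the 79.0th in knock-out.

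The difference was negative in 78 of the 78 bins, and each knock-out score was under each wildtype score in 78 of 78, against 34.8% of bins over the genome. Limma's test on single bins, adjusted over 117252 bins, called 28 of the 78 lower at an adjusted p below 0.05 (35.9%), against 11.2% of bins called lower over the genome. It called 0 of the 78 higher. Neighbouring scores vary together, so these bins are not independent of each other. The median difference over the 78 bins was -0.0928, against -0.00721 over all bins of the genome and -0.0169 over chromosome 15. With a wildtype library left out, the mean difference of the desert hardly moved. It was -0.0949 without replicate 1 and -0.10001 without replicate 2, against -0.0975 with all libraries. The number of calls nonetheless fell, here and over the genome. Without wildtype replicate 1 it fell to 4 of 78 and without wildtype replicate 2 to 7 of 78, where 3.75% and 3.30% of all bins were called lower. Leaving out a knock-out library gave 27 calls (replicate 1) or 37 calls (replicate 2). With the running mean subtracted 0 of the 78 were called, and the difference was negative in 42 of them and positive in 36.

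Called bins within 50 kb of each other were joined into runs. One run of 17 called bins started 60 kb from the Myc bins and reached from 61900001 to 62240000, on the side of Myc. Its mean score was 0.453 and 0.453 in wildtype, against 0.322 and 0.299 in knock-out, a difference of -0.142, with adjusted p from 0.00709 to 0.0449 by limma. The bin from 62060001 to 62080000 held the largest difference of the desert. It scored 0.496 and 0.513 in wildtype and 0.336 and 0.317 in knock-out, a difference of -0.178 with a standard error of 0.0310 and an adjusted p of 0.00709. Of the 17 calls of this run 4 were kept without wildtype replicate 1, 4 without wildtype replicate 2, 16 with knock-out replicate 1 left out and 14 with replicate 2 left out.

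A second run of 14 called bins, from 63160001 to 63480000, led into the enhancer cluster. Its mean score was 0.246 and 0.216 in wildtype, against 0.0749 and 0.108 in knock-out, a difference of -0.139, with adjusted p from 0.0131 to 0.0491 by limma. Of these 14 calls 0 were kept without wildtype replicate 1, 3 without wildtype replicate 2, 8 with knock-out replicate 1 left out and 11 with replicate 2 left out. A lone called bin lay between the runs, from 62680001 to 62700000, with a difference of -0.108. The smallest difference of the desert was -0.0270 in the bin from 62920001 to 62940000, where the adjusted p was 0.572. The profile of the desert had a broad top at either end with lower scores between, and both tops were lower in knock-out. The top on the side of Myc was 0.518 and 0.541 in wildtype against 0.399 and 0.410 in knock-out. The top on the side of the enhancers was 0.521 and 0.517 in wildtype against 0.361 and 0.430 in knock-out.

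**Figure D3:**
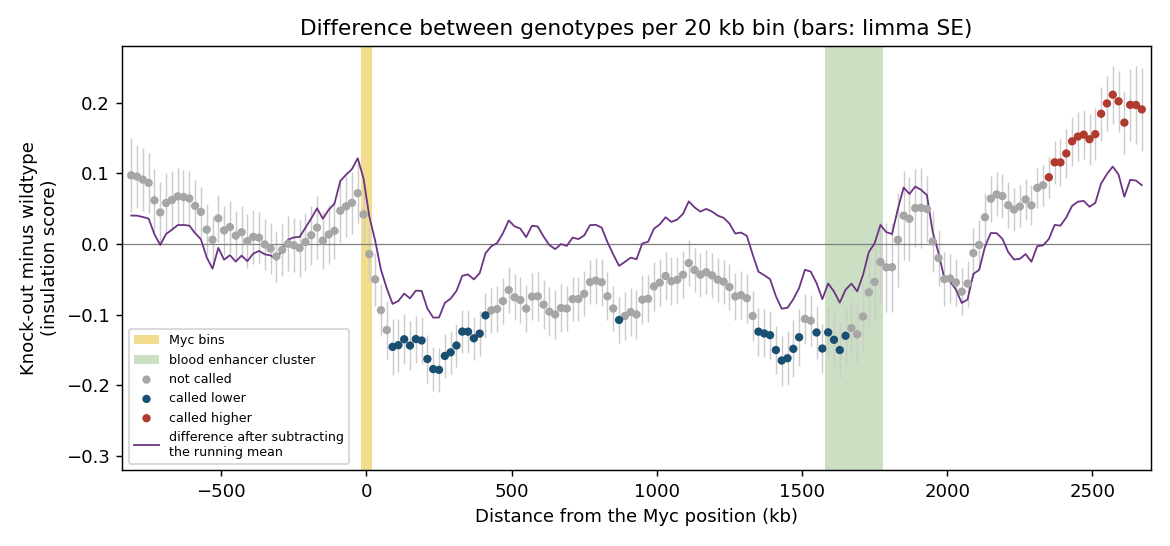
Knock-out minus wildtype insulation score per 20 kb bin (y axis, bars are limma's standard error) against distance from the Myc position in kb (x axis), with called bins coloured. The difference is below 0 in all 78 bins of the desert and rises above 0 at the far end of the stretch. The purple line gives the difference after a running mean was subtracted from each library, which is above 0 in 36 of those 78 bins.

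The stretch of positive scores within the domain was shorter in knock-out. It ran without a break in each library, and its ends were interpolated between bin centres. On the side of Myc the score rose through 0 at 61.851 and 61.848 Mb in wildtype, against 61.855 and 61.876 Mb in knock-out. On the side of the enhancers it fell through 0 at 63.411 and 63.407 Mb in wildtype and at 63.372 and 63.376 Mb in knock-out. The length between was 1560 and 1559 kb in wildtype and 1517 and 1500.0 kb in knock-out, so that the genotypes did not overlap. The difference of -50.9 kb amounts to between 2 and 3 bins of 20 kb, with an exact permutation p of 0.333 (two-sided, the smallest possible). The end on the side of the enhancers moved by -0.0350 Mb and the end on the side of Myc by 0.0159 Mb, both into the stretch. In wildtype the crossing on the side of the enhancers thus fell within the first bin of the cluster, and in knock-out before the cluster. A lower score at either end moves a crossing into the stretch. The shorter length thus restates the lower scores of the desert and the cluster and is not a separate result.

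Over the enhancer cluster itself, scores were lower in knock-out, most clearly in the part nearer Myc. Over its 10 bins the mean score was -0.363 and -0.410 in wildtype, against -0.460 and -0.520 in knock-out. The means were -0.386 ± 0.0330 and -0.490 ± 0.0431 (SD, n = 2), a difference of -0.104 with no overlap of the genotypes and an exact permutation p of 0.333. Limma called the first 4 bins of the 10 lower, against 11.2% of bins over the genome. In the first 7 each knock-out score was under each wildtype score, against 34.8% over the genome. The bin with the largest difference, from 63440001 to 63460000, scored -0.117 and -0.136 in wildtype and -0.248 and -0.306 in knock-out, a difference of -0.150 with an adjusted p of 0.0267. Towards the boundary the genotypes converged, and the last bin of the cluster differed by -0.0255 with an adjusted p of 0.774. In no bin of the cluster did the call survive the omission of either wildtype library. The cluster's share of bins called lower exceeded that of the genome with knock-out replicate 1 left out. With replicate 2 left out it was below the genome's share. The difference of the cluster's mean ran from -0.134 to -0.0733 with 1 library left out. Since the genotypes did not overlap, such an omission could not turn its sign.

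At Myc itself the scores of the genotypes could not be separated. The bins on either side of the Myc position, from 61800001 to 61840000, averaged -0.207 and -0.180 in wildtype, against -0.159 and -0.202 in knock-out, which overlap. The difference of the means was 0.0137, with an exact permutation p of 0.667 (two-sided), and it turned to -0.00782 without knock-out replicate 1. The 2 bins differed in direction. The bin from 61800001 differed by 0.0418 (standard error 0.0402) and the bin from 61820001 by -0.0144 (standard error 0.0381), with adjusted p of 0.468 and 0.806 by limma.

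On the centromere side of Myc the genotypes also overlapped. Over 40 bins from 61000001 to 61800000 the mean score was -0.0977 and -0.0519 in wildtype, against -0.0246 and -0.0593 in knock-out, a difference of 0.0328 with an exact permutation p of 0.667. The difference was 0.0731 between the libraries without a suffix and -0.00739 between those with T1. Limma called 0 of the 40 bins in either direction, with 0 at an unadjusted p below 0.05. The largest difference, 0.0971 in the bin from 61000001 to 61020000, had an adjusted p of 0.198. A called fall in score was thus seen on the enhancer side of Myc and not on the other side. The difference between the sides was not tested.

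Beyond the boundary past the enhancers, scores were higher in knock-out towards the far end of the stretch. Over 45 bins from 63600001 to 64500000 the mean was -0.0665 and -0.102 in wildtype, against 0.0129 and -0.0348 in knock-out, a difference of 0.0732 with no overlap and an exact permutation p of 0.333. Limma called 17 of the 45 bins higher (37.8%), against 11.2% of bins called higher over the genome, and 0 lower. All 45 lie where the wildtype compartment eigenvector, described below, was positive, and 18.5% of such bins over the genome were called higher. In the whole stretch 17 of 95 such bins (17.9%) were called higher, near that share. Each knock-out score exceeded each wildtype score in 28 of the 45 bins, against 31.0% of bins over the genome. The 17 called bins formed 1 run, from 64160001 to 64500000, which led down to the next boundary at 64520001, outside the stretch. Its mean score was -0.214 and -0.248 in wildtype, against -0.0563 and -0.0814 in knock-out, a difference of 0.162. The largest difference was 0.211 (standard error 0.0410) in the bin from 64380001 to 64400000, with an adjusted p of 0.00978. Of the 17 calls 6 were kept without wildtype replicate 1, 1 without wildtype replicate 2, 13 with knock-out replicate 1 left out and 17 with replicate 2 left out. The lowest value of this segment was -0.0675 in the bin from 63860001 to 63880000, with an adjusted p of 0.161.

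**Figure D4:**
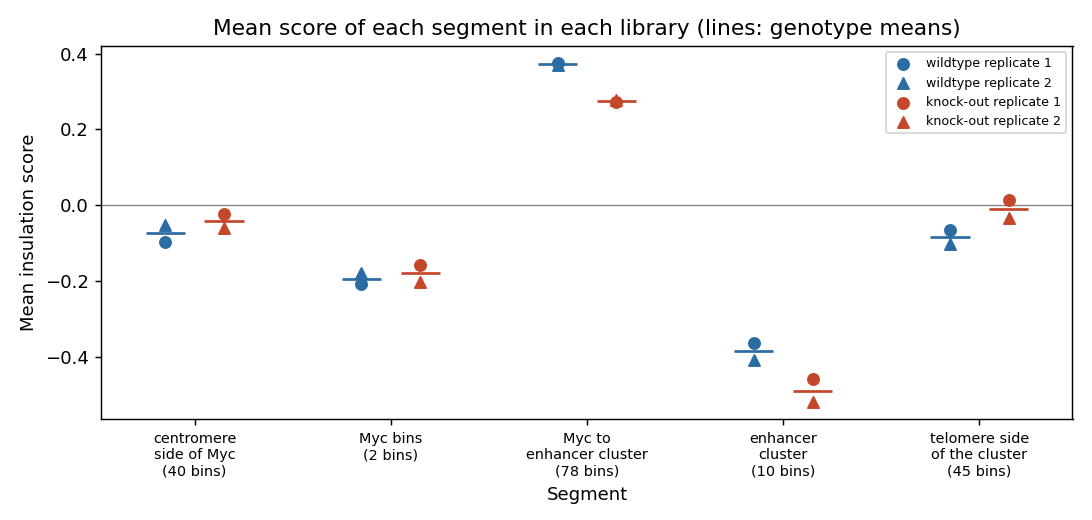
Mean insulation score (y axis) of the 5 segments (x axis) in each library, with lines at the genotype means. The genotypes separate in the desert, the enhancer cluster and the segment beyond it, and overlap at Myc and on its centromere side.

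Relative to their surroundings of about a megabase the bins differed less. With a running mean over 51 bins (1.02 Mb) subtracted from each library, limma called 0 of the 175 bins in either direction, with 28 at an unadjusted p below 0.05. It also called 0 of the 116967 bins of the genome that had a value, where 21879 had an unadjusted p below 0.05. Between Myc and the cluster, 36 of the 78 bins were now higher in knock-out, by up to 0.0602 in the bin from 62920001. The mean difference of the desert became -0.0162, that of the enhancer cluster -0.0422 and that of the segment beyond 0.0243. The run of called bins near Myc kept a difference of -0.0685 of its -0.142, and the run leading into the enhancers kept -0.0667 of its -0.139. The Myc bins, with 0.0137 before, differed by 0.0657 after subtraction, with 0.0754 between the libraries without a suffix and 0.0560 between those with T1. A running mean of that width at Myc takes in bins of the desert, so the value after subtraction is relative to those bins. Inside the desert it is taken largely over desert bins. The values and signs left there thus describe differences within the desert and do not bear on a shift of the whole.

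The compartment eigenvector divides a chromosome into a part rich in active genes and a part poor in them. Here it was given as 1 profile per genotype in bins of 200 kb, with no replicates and hence no test, and its sign is taken as deposited. Myc lay at a step in the eigenvector. The bin before Myc, from 61600001 to 61800000, was at -0.0109 in wildtype and -0.00766 in knock-out. The bin that begins with Myc, from 61800001 to 62000000, was at 0.0294 in wildtype and 0.0225 in knock-out, the highest values of the desert side until the enhancer cluster was passed. From there the eigenvector fell to near 0, reaching -0.0142 in wildtype and -0.0156 in knock-out in the bin from 62400001. It returned to 0.0191 in wildtype and 0.0157 in knock-out over the enhancer cluster. Past the cluster it rose to 0.0519 and 0.0525 in the bin from 64000001 to 64200000. By comparison the SD of the eigenvector over the 502 bins of chromosome 15 was 0.0442 in wildtype, so Myc and the cluster stood less than 1 SD above 0.

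The eigenvector was higher in knock-out in 4 of the 4 bins before Myc and lower in 9 of the 9 bins from Myc to the end of the enhancer cluster. Over chromosome 15 it was lower in 326 of 502 bins (64.9%), with a median difference of -0.000725. The differences before Myc ran from 0.00322 to 0.00939, and those from Myc through the cluster from -0.00890 to -0.000190, the last of these at the 62.5th percentile of the differences on the chromosome. The bin from 62000001 to 62200000, which lies in the desert next to Myc, had the largest drop, from 0.0234 to 0.0145. That drop was at the 2.99th percentile of the differences on chromosome 15, whose SD was 0.00412. One bin changed sign, from 62200001 to 62400000, at 0.00411 in wildtype and -0.00152 in knock-out. Over chromosome 15 10 of 502 bins (1.99%) did so. The largest rise was in the last bin, from 64400001 to 64600000, which extends past the stretch, from 0.0141 to 0.0270.

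**Figure D5:**
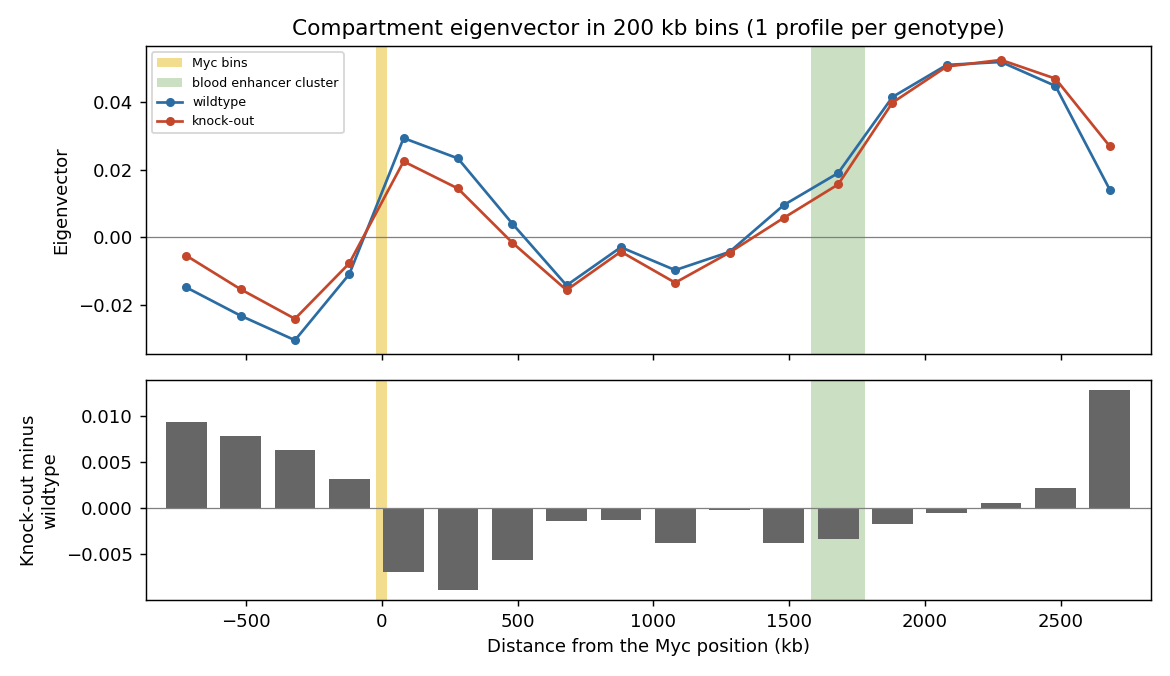
Compartment eigenvector in 200 kb bins (upper panel, y axis) of each genotype, and knock-out minus wildtype (lower panel), against distance from the Myc position in kb (x axis). Knock-out lies above wildtype before Myc and below it from Myc through the enhancer cluster.

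The calls of the desert fell mainly where the wildtype eigenvector was positive. Of its 38 bins of 20 kb in positive eigenvector bins, 25 (65.8%) were called lower by limma, against 4.81% of such bins over the genome. Those 25 calls all lie in the runs at either end of the desert. They share a few eigenvector bins of 200 kb, so they do not count as independent. Of its 40 bins in negative eigenvector bins, 3 (7.50%) were called lower, against 17.5% over the genome. Over the genome calls of a lower score were thus less frequent in positive than in negative bins, and in the desert the counts ran the other way. The split lies close to 0, since the negative eigenvector bins of the desert ran from -0.0142 to -0.00290 in wildtype. The SD over chromosome 15 was 0.0442. The median score difference in negative bins was -0.0740 in the desert against -0.0543 over the genome. In positive bins it was -0.130 against 0.0347. The difference between the desert and the genome in this respect was not tested. Eigenvector and insulation score may come from shared libraries.

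The deposited profiles in 10 kb bins, 1 per genotype and without a test, gave a like picture at finer spacing. All 350 bins of the stretch were listed. Their lowest bins beside Myc started at 61770001 in both genotypes, with a depth of 0.479 in wildtype and 0.329 in knock-out. Past the enhancers the lowest bins started at 63650001 in wildtype and 63640001 in knock-out, with depths of 1.10 and 0.964. Between Myc and the cluster each profile had 1 minimum, at 62830001, with depths of 0.116 and 0.109, under the depth set for a boundary. Knock-out was lower in 156 of the 156 bins of the desert, with a mean difference of -0.0955. It was lower in 20 of the 20 bins of the enhancer cluster, with a mean difference of -0.139. The sources used here do not say how libraries were pooled for these profiles, so they may not be independent of the 20 kb values.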

How the data were processed

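The authors deposited insulation scores per library (20 kb bins) and per genotype (10 kb bins), and a compartment eigenvector per genotype (200 kb bins), per the file headers. Each is used as a deposited score, with nothing further done to it unless stated. Coordinates are mm9, per the submitters' processing notes. Read alignment, filters, balancing and pooling are not given in the sources used here. Library columns were matched to samples through the number in the title, and replicates numbered in accession order, by which replicate 2 of each genotype is the library with the suffix T1. The labels do not say that the suffix marks a shared batch.

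Knock-out was compared with wildtype by limma (version 3.58.1, run in R 4.3.3), with moderated variances that follow the mean score, across the 117252 bins scored in 4 libraries, with Benjamini-Hochberg adjustment over all of them and a threshold of 0.05. The step was tested on simulated data with noise drawn separately for each bin. That test therefore does not cover neighbouring scores that vary together. Boundary depths of 1905 boundaries were fitted the same way. Segment means were compared by exact permutation tests in scipy 1.17.1. The stretch was divided at the Myc bins and the enhancer cluster. Alternatives left out each library, subtracted a running mean, scaled each library, dropped the variance trend, added the title suffix T1 as a term, used chromosome 15 alone, or changed the boundary definition. Named were these, the boundaries, runs of at least 3 called bins, and the bin of largest difference each way per segment. The lone called bin and the tops, dips and zero crossings were added after the values were seen. The stretch and its segments were chosen with earlier results of these data known. No sequence is shown, since the values are averages over 10 kb or more.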

Additional observations from a re-analysis of the deposited data

How the results depend on the processing

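With 2 libraries per genotype and unknown depth, precision rests on the spread between 2 values. Of 40 alternatives for the mean differences of the 5 segments, 39 kept the direction. The exception was the Myc bins, whose difference ran from -0.00782 without knock-out replicate 1 to 0.0352 without knock-out replicate 2. In segments where the genotypes did not overlap, leaving out 1 library could not turn the direction. The count of bins called lower, 32 of 175 with all libraries, ran from 4 (without wildtype replicate 1) to 38 when 1 library was left out, and the count called higher, 17, from 1 (without wildtype replicate 2) to 21. Over the genome 11.2% of bins were called lower with all libraries, 3.75% and 3.30% without a wildtype library, and 12.6% and 13.4% without a knock-out library. The cause was not tested. After subtraction of the running mean 0 bins were called lower and 0 higher, and the cause was not tested. Scaling each library to unit SD gave 39 lower and 14 higher, no trend in the variance 26 and 14, and adjustment over chromosome 15 alone 48 and 18. The shares of all bins called under these settings are not given here, so these counts have no background to be read against. The depth of the boundary beside Myc differed by -0.365 SD after scaling, with an adjusted p of 0.0415 by limma. Over 5 other alternatives, those without 1 library and with the lowest bin within 40 kb, the adjusted p ran from 0.145 to 0.371. In 20 kb bins the number of boundaries was 2 in the stretch and 0 between Myc and the cluster. It held with 5 bins on each side, at depths of 0.1 and 0.3 and in the mean profile of either genotype. The 10 kb profiles were not put through these settings. Their minimum at 62830001 had depths of 0.116 in wildtype and 0.109 in knock-out, over the setting of 0.1. The runs of called bins kept their direction under each alternative run. For the omission of a library this was fixed beforehand, since the genotypes did not overlap in any called bin. The fits that changed only the variance or the adjustment left the differences as they were. With the title suffix T1 as a replicate block, limma called 30 bins lower and 16 higher, likewise without a share over all bins. The depth beside Myc, -0.142 in this fit too, had an adjusted p of 0.0492 and passed, and the depth past the cluster one of 0.580; the block on depths was chosen after seeing the data. Over the genome, libraries of one suffix did not deviate together (r of the replicate differences was -0.0551 across 117252 bins). Across the 175 bins of the stretch that r was 0.226. The labels do not tie these libraries.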

Other observations

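Scores in the Myc stretch spread less widely in knock-out, whereas over the whole genome they spread more widely. The SD across the 175 bins was 0.401 and 0.410 in wildtype, against 0.354 and 0.385 in knock-out, with no overlap. Over the 117252 bins of the genome it was 0.432 and 0.438 in wildtype and 0.452 and 0.464 in knock-out. Over chromosome 15 it was 0.418 and 0.427 in wildtype and 0.452 and 0.461 in knock-out. The mean difference was -0.0356 in the stretch, 0.0230 over the genome and 0.0343 over chromosome 15, with a two-sided exact permutation p of 0.333 each time. In the stretch it ran from -0.0202 without knock-out replicate 1 to -0.0511 without knock-out replicate 2, and was -0.0206 with the running mean subtracted. Whether the stretch differs from the genome in this respect was not tested.

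Past the enhancers, the next domain was lower in knock-out at its near end and higher at its top, with no call at either place. The bin from 63860001 differed by -0.0675, with an adjusted p of 0.161 by limma. The highest score of that domain was 0.715 and 0.694 in wildtype, against 0.788 and 0.746 in knock-out, with an adjusted p of 0.145 in the bin of the top. Its score fell through 0 at 64.298 and 64.288 Mb in wildtype and at 64.333 and 64.328 Mb in knock-out. These places lie within the run called higher, so they restate its scores. The near end of that positive stretch differed less, at 63.808 and 63.806 Mb in wildtype against 63.809 and 63.820 Mb in knock-out.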
